A study of Mus musculus with 12 samples.

Results

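The 10 genes described here encode CC chemokines: Ccl2, Ccl3, Ccl4, Ccl5, Ccl6, Ccl7, Ccl9, Ccl12, Ccl22 and Ccl24. They were chosen by name as a list of CC chemokine genes, out of 24562 genes in the count table, and each was represented by its RefSeq transcript with the highest mean count (all 10 have 1 identifier). RNA had been sequenced from peritoneal macrophages, phagocytes that live in the abdominal cavity, of female mice. The 12 libraries form 4 groups of 3, which differ in diet (chow or a high fat diet, HFD) and in exposure to lipopolysaccharide (LPS), a component of the bacterial outer membrane sensed by Toll-like receptor 4. Each group is named by its diet and its hours of LPS: HFD 0 h and HFD 24 h, chow 0 h and chow 24 h. The labels give no strain, genotype, age, length of diet or source of single animals. Since no group is labelled as 24 h without LPS, the effect of LPS and that of time cannot be told apart. The series title points to inflammatory responses of macrophages in hypercholesterolemia, and the design allows tests of the LPS change in each diet, of the diets at 0 h and at 24 h, and of the interaction between diet and LPS.

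Chemokines are small secreted proteins that direct the movement of leukocytes through G protein-coupled receptors. The CC family is named for a pair of adjacent cysteines near the start of the mature protein, and its receptors are named CCR with a number. Macrophages stimulated through Toll-like receptors are a major source of CC chemokines, and NF-kB and interferon-regulated factors are known to act on many of their promoters. Ccl2, Ccl7 and Ccl12 attract monocytes through CCR2. Ccl3 and Ccl4, the macrophage inflammatory proteins, attract monocytes and lymphocytes, and Ccl3 binds CCR1. Ccl5, known as RANTES, binds CCR1 and CCR3 among others and attracts T cells and monocytes. Ccl6 and Ccl9 are rodent chemokines that bind CCR1 and are made by resting myeloid cells. Ccl22 attracts T cells through CCR4, and Ccl24, an eotaxin, attracts eosinophils through CCR3.

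In GRCm38, the assembly behind the authors' mm10 build, 8 of the 10 genes lie in clusters on chromosome 11. Ccl2 (82035571 to 82037453), Ccl7 (82045712 to 82047525) and Ccl12 (82101845 to 82103400), on the plus strand, share the first cluster with Ccl11, Ccl8 and Ccl1. The second cluster holds Ccl5 (83525778 to 83530518), Ccl9 (83572919 to 83578636), Ccl6 (83587882 to 83593087) and Ccl3 (83647844 to 83649355) on the minus strand and Ccl4 (83662584 to 83664683) on the plus strand. Ccl22 lies on chromosome 8 (94745590 to 94751699) and Ccl24 on chromosome 5 (135569937 to 135573049). These are transcript positions from GENCODE M21. Ccl6 and Ccl9 have 4 exons, and the other 8 transcripts have 3. RefSeq promoter sequences were matched for 5 of the 10 genes: Ccl3, Ccl6, Ccl9, Ccl12 and Ccl22. The 250 bases upstream of the start are shown for Ccl6 (chr11:83593088-83593337, minus strand) and Ccl9 (chr11:83578637-83578886, minus strand), adjacent genes of which Ccl9 passed the LPS test in both diets, and for Ccl12 (chr11:82101595-82101844, plus strand), which had almost no counts before LPS. They are written 5′ to 3′ in the direction of transcription, and capitals mark the motif matches.
Ccl6: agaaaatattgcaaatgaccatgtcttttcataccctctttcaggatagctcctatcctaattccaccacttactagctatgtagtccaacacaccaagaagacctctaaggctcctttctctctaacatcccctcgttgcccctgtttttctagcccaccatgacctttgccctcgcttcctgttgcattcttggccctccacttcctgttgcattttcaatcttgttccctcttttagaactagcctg
Ccl9: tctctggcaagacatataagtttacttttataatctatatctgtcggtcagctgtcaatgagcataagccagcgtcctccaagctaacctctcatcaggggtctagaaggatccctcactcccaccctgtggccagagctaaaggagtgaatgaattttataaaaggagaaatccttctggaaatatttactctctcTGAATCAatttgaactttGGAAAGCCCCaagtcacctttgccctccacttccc
Ccl12: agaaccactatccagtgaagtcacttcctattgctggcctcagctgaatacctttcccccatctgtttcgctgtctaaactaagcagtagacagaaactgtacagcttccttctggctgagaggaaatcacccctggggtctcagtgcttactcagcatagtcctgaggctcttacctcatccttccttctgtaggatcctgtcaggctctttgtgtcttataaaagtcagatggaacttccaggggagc

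Motifs were searched on both strands, with overlaps allowed: the NF-kB motif and the interferon-stimulated response element, both by name, the AP-1 motif TGANTCA and the STAT motif TTCNNNGAA. The Ccl9 window held an AP-1 match from 53 to 47 bases upstream of the start and an NF-kB match from 35 to 26 bases upstream. No match lay in the windows of Ccl6, Ccl12, Ccl3 or Ccl22. Among 32851 RefSeq promoter windows of the same length, 7.25% held the NF-kB motif, 2.98% the interferon-stimulated response element, 6.75% the AP-1 motif and 7.02% the STAT motif. A match is a sequence description and not a measured binding site.

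Library totals over 1 transcript per gene ranged from 2360244 to 20688308 counts, the lowest by far in HFD 0 h replicate 3, with 9135057 the next above it. In HFD 0 h replicate 3, 3 counts equal 1.35 CPM (counts scaled to the TMM-adjusted library total), against 0.139 to 0.334 in the other libraries, so low genes are poorly measured there. The macrophage list (Adgre1, Csf1r, Cd68, Itgam, Lyz2 and Mertk) had counts for 6 of 6 genes in every group. It summed to 14178 to 15526 CPM in chow 0 h and 14016 to 15647 in HFD 0 h, and to lower values without overlap, 9215 to 10582 in chow 24 h and 9644 to 12064 in HFD 24 h. Lyz2, the largest part of the sum, was at 9666 to 10156 CPM in chow 0 h and 3796 to 4852 in chow 24 h. In HFD, Lyz2 was at 9233 to 11050 CPM at 0 h and 4102 to 5537 at 24 h. Adgre1 went the other way in both diets, at 383 to 398 CPM in chow 0 h and 526 to 913 in chow 24 h. Csf1r, Cd68 and Itgam overlapped between the times in both diets, and Mertk did so in chow. The neutrophil list (6 of 6 matched, with S100a8 and Csf3r among them) summed to 90.4 to 158 CPM, while its defining gene Ly6g reached at most 0.197 CPM in any library. B cell genes (4 of 5 matched) summed to 3.65 to 19.6 CPM, and T and NK cell genes (5 of 6 matched) to 0 to 4.42 CPM. Genes of large peritoneal macrophages (5 of 5) summed to 19.2 to 30 CPM in chow 0 h and 27.8 to 33.6 in chow 24 h. In HFD they summed to 13.3 to 37.5 CPM at 0 h and 16.6 to 26.8 at 24 h, and Gata6 of that list reached at most 17.7 CPM in any library. Genes of small peritoneal macrophages and monocytes (5 of 5) summed to 158 to 219 CPM in chow 0 h, 202 to 371 in chow 24 h, 115 to 218 in HFD 0 h and 237 to 330 in HFD 24 h. Of these, Ly6c2 was at 1.58 to 3.57 CPM in chow 0 h and 82.3 to 198 in chow 24 h. In HFD, Ly6c2 was at 0.624 to 3.12 CPM at 0 h and 84.5 to 108 at 24 h. Ccr2 went the other way in both diets, H2-Aa and Irf4 overlapped between the times, and Cd226 reached at most 0.459 CPM. Mast cell genes (5 of 5) summed to 14.1 to 25.9 CPM. Mesothelial and fibroblast genes (8 of 8) summed to 760 to 2408 CPM in chow 0 h, 1010 to 2991 in chow 24 h, 678 to 1378 in HFD 0 h and 970 to 1080 in HFD 24 h. These sums were mainly Col1a1, Col1a2 and Col3a1, and the mesothelial markers Msln, Upk3b and Krt19 each reached at most 4.05 CPM. The part of any of these cells in a chemokine level was not tested. In bulk RNA, fewer cells of a type and less RNA per cell cannot be told apart.

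Before LPS the chemokine transcripts of chow macrophages were led by Ccl6. Per kilobase of transcript (RPKM), Ccl6 stood at 367 ± 41 (SD, n = 3), followed by Ccl5 at 185 ± 23, Ccl9 at 102 ± 7.4, Ccl3 at 82.6 ± 7.1, Ccl2 at 23.5 ± 7 and Ccl4 at 11.9 ± 1.9. The ranges of these neighbours in the order did not overlap over the 3 libraries. Ccl7 (4.22 ± 2.1 RPKM) and Ccl22 (2.31 ± 0.42) overlapped each other, Ccl24 was at 0.692 ± 0.2, and Ccl12 had 0 counts in all 3 libraries. In HFD 0 h, Ccl6 again led, at 220 ± 116 RPKM. There Ccl5 (76.2 ± 13), Ccl3 (70.9 ± 4.3) and Ccl9 (65 ± 25) overlapped in neighbouring order, as did each neighbouring pair from Ccl2 (15.6 ± 5.8) down to Ccl12.

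After 24 h of LPS the order was led by Ccl5 and Ccl2 in both diets. Ccl5 stood at 3396 ± 307 RPKM in chow and 3365 ± 223 in HFD, and Ccl2 at 870 ± 72 and 578 ± 27. In chow, Ccl3 (303 ± 75), Ccl9 (299.5 ± 9.8) and Ccl6 (289 ± 53) overlapped, as did Ccl12 (50.7 ± 20) and Ccl4 (49.1 ± 6.8), with Ccl7 at 131 ± 11 between these sets. In HFD, Ccl9 (411.5 ± 56), Ccl6 (373 ± 103) and Ccl3 (218 ± 84) overlapped in neighbouring order. Ccl22 (10.8 ± 0.79 RPKM in chow and 8.44 ± 3.8 in HFD) and Ccl24 (1.29 ± 0.4 and 1.05 ± 0.35) were last, with Ccl22 in HFD overlapping Ccl12 (22.4 ± 16) above it. The summed RPKM of the 10 genes was 778 ± 39 in chow 0 h, 460 ± 162 in HFD 0 h, 5399 ± 447 in chow 24 h and 5081 ± 420 in HFD 24 h.

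Of that sum, Ccl6 held 47 ± 3% in chow 0 h and 45.9 ± 8.4% in HFD 0 h, and 5.37 ± 1.1% and 7.26 ± 1.4% at 24 h. Ccl5 held 23.8 ± 3.3% and 17.3 ± 3% at 0 h, and 62.9 ± 0.5% and 66.3 ± 1.1% at 24 h. Ccl2 went from 3.02 ± 0.92% to 16.1 ± 1% in chow and from 3.37 ± 0.55% to 11.4 ± 1% in HFD. The lengths behind RPKM are those of GENCODE transcripts paired with the counted RefSeq identifiers. A share falls when the other genes rise, so these values describe the mixture and not the change of each gene.

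**Figure D1:**
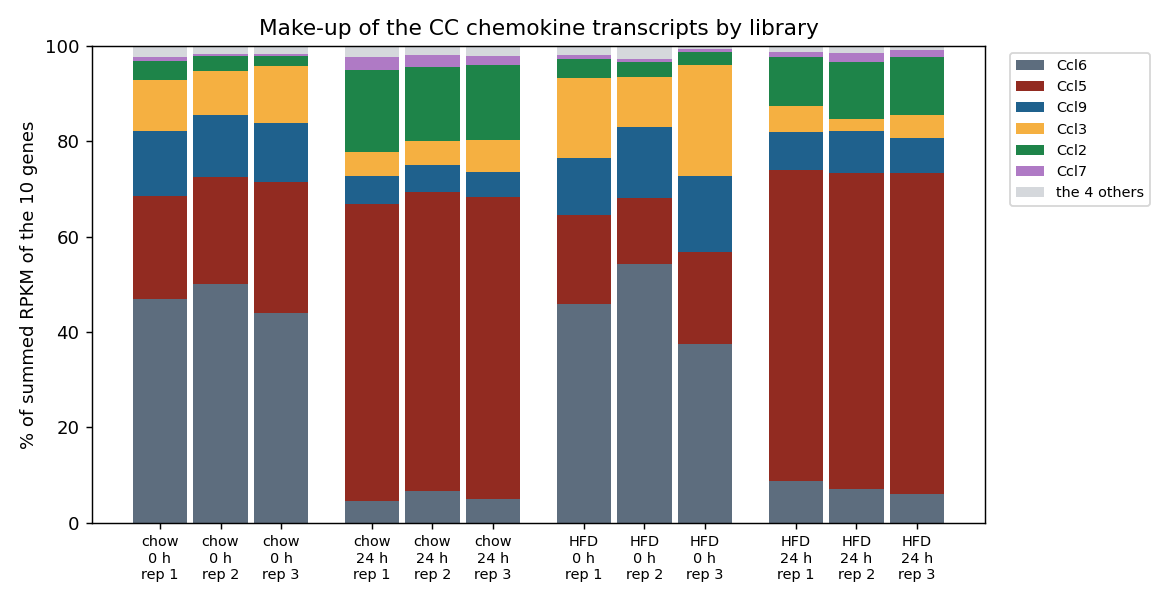
Make-up of the CC chemokine transcripts: each bar is 1 library, and the segments are each gene's percentage of the summed RPKM of the 10 genes, with Ccl4, Ccl12, Ccl22 and Ccl24 drawn together. Ccl6 takes 37.5% to 54.3% of each 0 h bar, and Ccl5 takes 62.4% to 67.4% of each 24 h bar.

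In chow macrophages, 8 of the 10 chemokine transcripts were higher after 24 h of LPS and 0 were lower, at an adjusted p of 0.05 (edgeR's quasi-likelihood test with Benjamini-Hochberg adjustment). Among all 12641 genes tested, 13.7% were higher and 12.9% lower. The median log2 fold change of the 10 genes was 2.14, against 0.00 for all genes tested. In HFD macrophages 8 of 10 were higher and 0 lower, against 12.7% higher and 12% lower among all genes, and the median was 2.49. All 10 genes passed the filter on low counts, but Ccl12 passed through the 24 h groups alone and so had to differ. Ccl24 also needed its 24 h libraries to pass the filter, and it was called in neither diet. Without Ccl12, 7 of 9 were higher in each diet, with Ccl24 among the 9, while both medians include Ccl12 and Ccl24. The 8 higher genes were the same in both diets: Ccl2, Ccl3, Ccl4, Ccl5, Ccl7, Ccl9, Ccl12 and Ccl22. The count in HFD was also 8 without HFD 0 h replicate 3. The labels of the chow 24 h libraries, but not those of chow 0 h, hold a sequencing lane tag (lane 8), so in chow the tag and LPS cannot be told apart. When the tag was fitted as well, 5 of 10 passed in chow, and the calls of Ccl3 (log2 fold change 1.13 ± 0.35, adjusted p = 0.0511), Ccl4 (1.5 ± 0.58, 0.122) and Ccl22 (1.59 ± 0.56, 0.081) ended in edgeR. In HFD, where only replicate 1 of the 24 h libraries carries the tag, 8 passed with it.

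Ccl2 and Ccl7 rose with LPS in both diets, and Ccl12 was counted almost only after it. Ccl2 was at 24.2, 20.3 and 12.9 CPM in the chow 0 h libraries (replicates 1, 2 and 3) and at 724.5, 641.8 and 754.6 CPM in the chow 24 h libraries. In HFD it was at 13.4, 16.9 and 7.64 CPM at 0 h and at 458.9, 495.8 and 455.8 CPM at 24 h. Every 24 h library lay far above every 0 h library, with log2 fold changes of 5.21 ± 0.23 (SE) in chow and 5.11 ± 0.24 in HFD (edgeR adjusted p = 6.21e-11 and 1.09e-10). Ccl7, whose gene follows Ccl2 on the chromosome, went from 5.23, 2.92 and 2 CPM to 110.7, 108.9 and 94.3 CPM in chow. In HFD it went from 2.71, 2.45 and 1.35 CPM to 48.7, 74.0 and 52.4 CPM. Its log2 fold changes were 4.94 ± 0.27 and 4.59 ± 0.30 (edgeR adjusted p = 5.31e-10 and 5.17e-09), with no overlap between the times in either diet.

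Ccl12 had 0 counts in all 3 chow 0 h libraries and 352, 188 and 587 counts (26.3, 16.9 and 38.5 CPM) in the chow 24 h libraries. Against 3 counts over the 0 h group, it was at least 335-fold higher at 24 h. In HFD it had 0, 2 and 0 counts at 0 h and 111, 392 and 117 counts (8.78, 21.9 and 5.41 CPM) at 24 h. The ratio of the pooled counts was 124, with an exact 95% interval of 34.1 to 1024 that covers counting error only. No p is given for Ccl12, since it entered the test only through its 24 h counts. The 3 CCR2 ligands thus differed in their level before LPS, from none counted in chow to 24.2 CPM, and each was higher in every 24 h library than in any 0 h library of its diet.

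Ccl3, Ccl4 and Ccl5, which attract T cells and monocytes, rose with LPS in both diets. Ccl5 went from 86.1, 97.9 and 110.6 CPM to 1710, 1715 and 1996 CPM in chow, and from 41.3, 47.1 and 33.3 CPM to 1908, 1793 and 1670 CPM in HFD. The mean level was 18.4-fold higher in chow and 44.1-fold higher in HFD, with log2 fold changes of 4.20 ± 0.16 and 5.44 ± 0.17 (edgeR adjusted p = 1.23e-11 and 1.09e-12). The 24 h ranges of the diets overlapped, while the 0 h ranges did not. Ccl3 went from 58.6 to 69.3 CPM at 0 h to 198 to 299 CPM at 24 h in chow, and from 51.6 to 58.0 CPM to 99.5 to 229 CPM in HFD. Its log2 fold changes were 1.88 ± 0.24 and 1.62 ± 0.24 (edgeR adjusted p = 1.53e-05 and 8.51e-05). Ccl4, which lies next to Ccl3 on the other strand, went from 6.74 to 9.19 CPM to 27.4 to 36.2 CPM in chow. In HFD it was at 4.27, 9.91 and 0.899 CPM at 0 h, the last from 2 counts in the shallow replicate 3, and at 15.7 to 25.8 CPM at 24 h. The log2 fold changes of Ccl4 were 2.05 ± 0.34 and 1.78 ± 0.37 (edgeR adjusted p = 0.00024 and 0.00169). The counted transcripts of Ccl3 and Ccl4 do not overlap, but the RefSeq gene span of Ccl4 covers part of Ccl3 on the opposite strand. How the counting treated strand is not known.

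The CCR1 ligands Ccl6 and Ccl9 are neighbours on chromosome 11, and in the edgeR test Ccl9 rose with LPS in both diets while Ccl6 passed in neither. Ccl9 went from 314, 323 and 281 CPM to 893, 875 and 933 CPM in chow, and from 148, 284 and 155 CPM to 1323, 1344 and 1044 CPM in HFD. It rose in both diets without overlap between the times, with log2 fold changes of 1.56 ± 0.20 and 2.65 ± 0.21 (edgeR adjusted p = 1.3e-05 and 4.25e-08). Ccl6 was at 512, 593 and 479 CPM at 0 h and at 336, 489 and 423 CPM at 24 h in chow. In HFD it was at 275, 501 and 176 CPM at 0 h and at 695, 517 and 399 CPM at 24 h. Its times overlapped in both diets, and neither change passed (log2 fold change -0.35 ± 0.30 with edgeR adjusted p = 0.455 in chow, and 0.75 ± 0.30 with 0.0892 in HFD). DESeq2 (0.77, adjusted p = 0.0321) and limma-voom (0.80, 0.0439) did call the Ccl6 change in HFD. Without HFD 0 h replicate 2, the highest of its group for Ccl6, edgeR called it too (1.25, 0.00144). The difference between Ccl6 and Ccl9 as genes was not tested. Of the Ccl9 transcript, 126 of 2977 stretches of 30 bases (4.23%) also occur in transcripts of other genes, and no stretch of 30 bases is shared between any pair of the 10 genes.

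Ccl22 rose with LPS in both diets, and Ccl24 did not pass in either. Ccl22 went from 6.18, 4.78 and 4.41 CPM to 26, 23.4 and 22.6 CPM in chow, with a log2 fold change of 2.22 ± 0.34 (edgeR adjusted p = 8.44e-05). In HFD it went from 3.95, 4.67 and 0.899 CPM to 24.5, 9.18 and 22.4 CPM (2.32 ± 0.37, 0.000154), with HFD 24 h replicate 2 below the other 24 h libraries and still above all 0 h libraries. Ccl22 is known from dendritic cells, whose list (5 of 5 genes matched, mainly Ccr7 by level) summed to 16.2 to 22.9 CPM in chow 0 h, 27.3 to 36.1 in chow 24 h, 5.31 to 12.6 in HFD 0 h and 15.7 to 17.9 in HFD 24 h. Cd209a of that list was at 0 in both 24 h groups, and the part of such cells in the Ccl22 level was not tested. Ccl24 was at 0.634 to 1.16 CPM in chow 0 h and 1.08 to 2.02 CPM in chow 24 h, from 8 to 29 counts a library, and its log2 fold change of 0.90 ± 0.58 did not pass (edgeR adjusted p = 0.294). In HFD it had 0, 6 and 1 counts at 0 h and 21, 28 and 18 at 24 h, and 1.93 ± 0.76 did not pass either (0.0746). Ccl24 needed its 24 h libraries to pass the filter on low counts, so these p-values are not free of that selection. Without HFD 0 h replicate 2 the Ccl24 change in HFD passed, at 3.74 (0.0283), from 1 count at 0 h. Ccl24 acts on eosinophils, whose markers (5 of 5 matched, mainly Siglecf and the Ccl24 receptor Ccr3) summed to 22.6 to 25.1 CPM in chow 0 h, 6.37 to 9.43 in chow 24 h, 18 to 23.4 in HFD 0 h and 6.93 to 7.67 in HFD 24 h. Of these markers, Siglecf was lower at 24 h without overlap in both diets. In chow, Siglecf was at 20.5 to 22.9 CPM at 0 h and 3.21 to 4.52 at 24 h. Ccr3 did not share this fall, and its times overlapped in both diets. In chow, Ccr3 was at 1.91 to 2.62 CPM at 0 h and 2.06 to 4.85 at 24 h. Epx, which defines eosinophils, reached at most 0.45 CPM in any library, and the part of these cells was not tested.

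**Figure D2:**
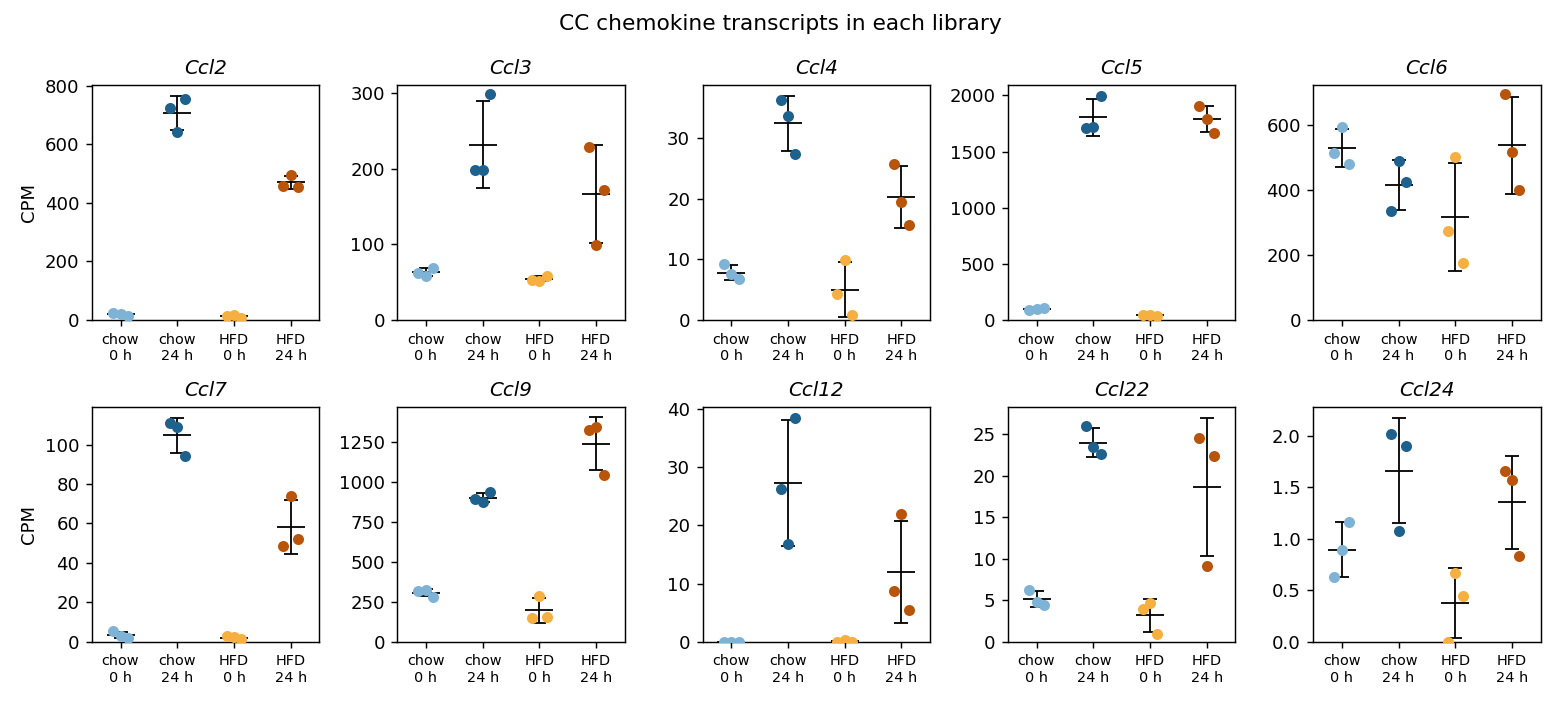
CC chemokine transcripts in each library: each panel is 1 gene, the y axis is CPM on a linear scale from 0 with its own range, points are libraries, and bars are the mean and SD of the 3 libraries of a group. The 24 h points of Ccl2, Ccl7, Ccl5 and Ccl9 stand clear of the 0 h points in both diets, while those of Ccl6 overlap them.

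**Figure D3:**
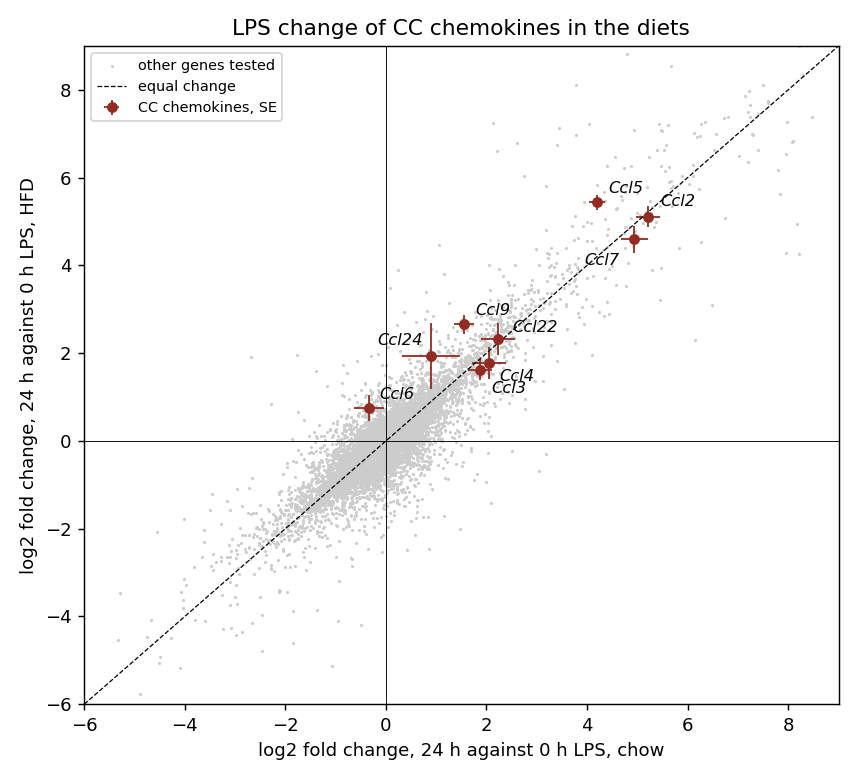
LPS change in chow (x axis) and in HFD (y axis) as log2 fold changes of 24 h against 0 h, with SE bars for 9 chemokines and grey points for the other genes tested within the plotted range. Ccl12, with 0 counts in chow 0 h, is not drawn. Ccl5, at 4.20 and 5.44, and Ccl9, at 1.56 and 2.65, lie above the dashed line of equal change, and Ccl2, at 5.21 and 5.11, lies near it.

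Before LPS, 1 of the 10 chemokine transcripts, Ccl5, was lower in HFD than in chow macrophages, and 0 were higher. Of all genes tested 0.087% were lower, 11 genes in number. The 3 HFD libraries of Ccl5 (41.3, 47.1 and 33.3 CPM) all lay below the 3 chow libraries (86.1, 97.9 and 110.6 CPM), with a mean level 0.413 times that of chow. The log2 fold change was -1.25 ± 0.15, with a 95% interval of -1.57 to -0.94 (edgeR adjusted p = 0.00134). Without the shallow HFD 0 h replicate 3 it was -1.16 (adjusted p = 0.0036). The call held in each of the 12 fits that left out 1 library and with DESeq2 and limma-voom. The dendritic cell sum, mainly Ccr7, was 16.2 to 22.9 CPM in chow 0 h and 5.31 to 12.6 in HFD 0 h. Of that list, Ccr7 and Flt3 were at lower values in HFD without overlap. Zbtb46 overlapped (1.5 to 2.43 CPM in chow, 1.35 to 1.67 in HFD), and Xcr1 and Cd209a reached at most 0.445 CPM at 0 h. Of the 6 macrophage genes 3 had estimates below 0, among them Adgre1 (180 to 309 CPM in HFD, 383 to 398 in chow). The part of any of these cells in the Ccl5 difference was not tested.

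Of the other chemokines, 8 had estimates below 0 at 0 h and did not pass. Ccl9 had a log2 fold change of -0.64 ± 0.20 (95% interval -1.06 to -0.22, edgeR adjusted p = 0.438). HFD 0 h replicate 2, at 284 CPM, lay within the chow range of 281 to 323, and replicates 1 and 3, at 148 and 155, lay well below it. Without replicate 2 the Ccl9 difference was -1.02 and passed (0.00688), so the number of chemokines called lower was 2 in place of 1. Ccl6 showed the same split, with HFD 0 h replicate 2 at 501 CPM inside the chow range of 479 to 593 and the other HFD libraries at 275 and 176, and its difference was -0.73 ± 0.30 (95% interval -1.37 to -0.08, adjusted p = 0.748). Ccl2 was at -0.49 ± 0.23 (-0.97 to -0.01, 0.801) and Ccl7 at -0.49 ± 0.35 (-1.24 to 0.25, 0.918). Ccl3 was at -0.23 ± 0.24 (-0.74 to 0.28, 0.973), although its HFD libraries (51.6 to 58.0 CPM) lay just below the chow libraries (58.6 to 69.3). Ccl4 (-0.41 ± 0.38), Ccl22 (-0.46 ± 0.39) and Ccl24 (-1.36 ± 0.79) had intervals that reached above 0, and Ccl12, with at most 2 counts in a library, gives no fold. The median of the 10 fitted values, that of Ccl12 included, was -0.49, against 0.00 for all genes tested, and 4 of the 10 had an unadjusted p under 0.05, against 778 of all genes.

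After 24 h of LPS, 0 of the 10 chemokines passed between the diets by edgeR, DESeq2 or limma-voom, and 5 had an unadjusted p under 0.05 in edgeR. Of all genes tested, 0.00791%, or 1 gene, passed, and 993 had an unadjusted p under 0.05. The CCR2 ligands were at lower values in HFD, without passing. Ccl7 had a log2 fold change of -0.84 ± 0.21 (95% interval -1.29 to -0.39, edgeR adjusted p = 0.296), and its HFD libraries (48.7 to 74.0 CPM) lay below the chow libraries (94.3 to 110.7). Ccl2 was at -0.59 ± 0.19 (-1 to -0.18, 0.509), again with HFD libraries (456 to 496 CPM) below chow libraries (642 to 755). Ccl12 was at -1.18 ± 0.46 (-2.18 to -0.17, 0.599), with the highest HFD library, 21.9 CPM, above the lowest chow library, 16.9. Ccl4 was at -0.68 ± 0.32 (-1.35 to -0.0032, 0.635) and Ccl3 at -0.48 ± 0.23 (-0.96 to 0.01, 0.635). The genes of mesothelial cells and fibroblasts, which are also known to make CCR2 ligands, summed to 1010 to 2991 CPM in chow 24 h and 970 to 1080 in HFD 24 h. Nearly all of these sums came from collagen genes and Dcn, while the mesothelial markers Msln, Upk3b and Krt19 each reached at most 0.896 CPM at 24 h. The part of these cells in the chemokine values was not tested.

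Of the CCR1 ligands, Ccl9 and Ccl6 had estimates above 0 at 24 h, and Ccl3 and Ccl5 had estimates below 0. Ccl9 was at 0.46 ± 0.19 (95% interval 0.05 to 0.87, edgeR adjusted p = 0.61), with HFD libraries of 1044 to 1344 CPM above chow libraries of 875 to 933. Ccl6 was at 0.37 ± 0.30 (-0.27 to 1.01, 0.828). Ccl5, the chemokine that differed before LPS, was at -0.01 ± 0.14 at 24 h, with an interval of -0.31 to 0.28. Ccl22 (-0.36 ± 0.31) and Ccl24 (-0.32 ± 0.55) had intervals that included 0. Within the tagged lane only HFD 24 h replicate 1 can be set against the 3 chow 24 h libraries. With the tag fitted, Ccl7 was at -1.10 ± 0.31, Ccl2 at -0.62 ± 0.29 and Ccl9 at 0.56 ± 0.27, while Ccl3 was at -0.02 ± 0.27, and none passed in edgeR (adjusted p = 0.869 for Ccl7 and 0.999 for the others).

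**Figure D4:**
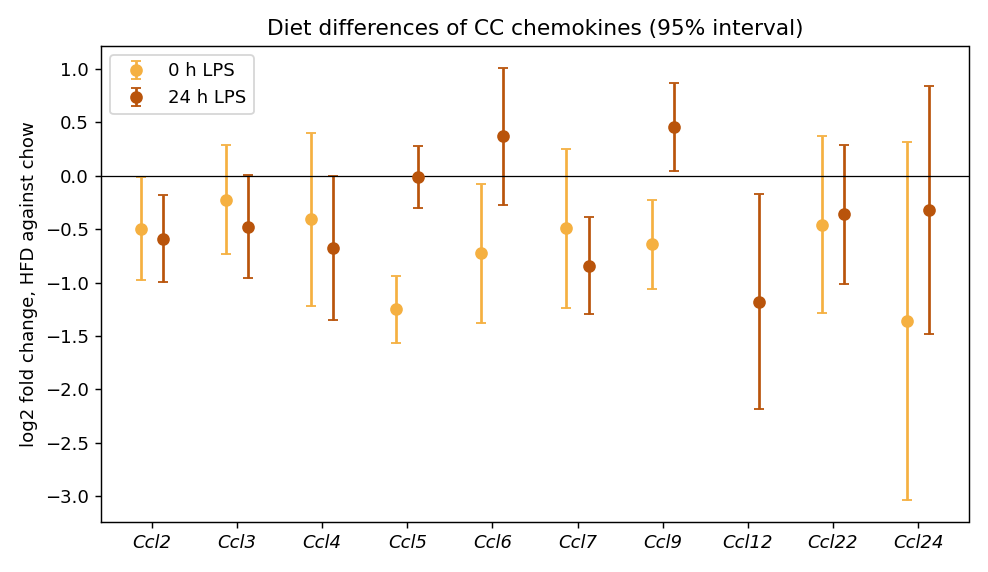
Diet differences of the chemokines as log2 fold changes of HFD against chow at 0 h and at 24 h of LPS, with 95% intervals from the edgeR fit, before any adjustment for the number of genes. Ccl12 has no value at 0 h. The 0 h interval of Ccl5, from -1.57 to -0.94, lies away from 0, and its 24 h interval, from -0.31 to 0.28, spans 0.

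The LPS changes of the diets were compared directly by the interaction, the change in HFD minus the change in chow. By edgeR 0 of the 10 chemokines passed and 3 had an unadjusted p under 0.05, and of all genes tested 0% passed while 297 had an unadjusted p under 0.05. DESeq2 called 2 of the 10, where over all genes it called 9 higher and 1 lower, and limma-voom called 0 of the 10. The interaction shares the HFD 0 h and chow 0 h libraries with the diet comparison at 0 h, so the values are not independent. The estimate of Ccl5 was 1.24 ± 0.20 (95% interval 0.81 to 1.67), with an edgeR adjusted p of 0.0805. DESeq2 gave 1.23 with an adjusted p of 3.34e-07. Without chow 24 h replicate 3 (1.33, 0.0333) or HFD 0 h replicate 2 (1.36, 0.0378) Ccl5 passed in edgeR, as it did without a filter on low counts (1.26, 0.00902). Without HFD 0 h replicate 3 the adjusted p was 0.112, and with the lane tag fitted 0.739.

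Ccl9 had an interaction of 1.10 ± 0.28 (0.51 to 1.69, edgeR adjusted p = 1) and Ccl6 of 1.10 ± 0.42 (0.18 to 2.01, 1). DESeq2 called Ccl9 (1.10, 0.0217), and edgeR called it without HFD 0 h replicate 2 (1.48, 0.0138). For Ccl2 the interaction was -0.09 ± 0.30 (-0.73 to 0.54) and for Ccl7 -0.35 ± 0.42 (-1.23 to 0.53). Ccl3 (-0.25 ± 0.33), Ccl4 (-0.27 ± 0.50), Ccl22 (0.10 ± 0.49) and Ccl24 (1.03 ± 0.97) had intervals that included 0 as well. For these genes an interaction was not detectable at this spread, which differs from showing that the diets respond alike.

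Of the other 14 mouse CC chemokine genes, 2 passed the filter on low counts, Ccl8 and Ccl25, and neither passed a test in any of the 5 comparisons by edgeR. Ccl8, which follows Ccl12 on the chromosome, varied within each group: it was at 1.27, 1.70 and 7.15 CPM in chow 0 h and at 6.35, 4.31 and 16.5 CPM in chow 24 h. In HFD it was at 17.1, 10.5 and 3.15 CPM at 0 h and at 12.5, 18.8 and 4.90 CPM at 24 h. Its LPS changes were 1.44 ± 0.72 in chow (edgeR adjusted p = 0.171) and 0.10 ± 0.68 in HFD (0.935). In chow the change passed without chow 0 h replicate 3 (2.63, 0.0284). Between the diets at 0 h the Ccl8 estimate was 1.74, above 0, although the libraries of the diets overlapped. There 1 of the 2 genes, Ccl8, had an unadjusted edgeR p under 0.05, against 778 of all genes. Ccl1, Ccl21a, Ccl21b, Ccl21c, Ccl26 and Ccl27b had 0 counts in all 12 libraries. Ccl17, which shares CCR4 with Ccl22, reached 0.832 CPM at most.

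Of 15 CC chemokine receptors and scavenging receptors, 7 were tested. With LPS, 4 rose and 1 fell in each diet, where among all genes tested 13.7% rose and 12.9% fell in chow and 12.7% rose and 12% fell in HFD. Ccr1, a receptor of Ccl3, Ccl5, Ccl6 and Ccl9, went from 97.5 ± 6.8 to 335 ± 14 CPM (SD, n = 3) in chow and from 75.9 ± 17 to 306 ± 2.9 CPM in HFD, with log2 fold changes of 1.78 ± 0.14 and 1.99 ± 0.15. Ccrl2, a receptor that binds ligands without G protein signalling, changed by 1.58 ± 0.20 and 1.29 ± 0.20. Ccr2, the receptor of Ccl2, Ccl7 and Ccl12, went the other way, from 8.01 ± 1.6 to 1.23 ± 0.36 CPM in chow and from 4.92 ± 1.7 to 1.61 ± 0.65 CPM in HFD. Its log2 fold changes were -2.68 ± 0.37 and -1.68 ± 0.38 (edgeR adjusted p = 3.3e-05 and 0.00284). The receptor Ccr7 rose by 0.90 ± 0.25 in chow and 1.29 ± 0.29 in HFD (0.0134 and 0.00287), and its chow call ended with the lane tag (0.211), without chow 0 h replicate 2 (0.0806) and without chow 24 h replicate 1 (0.0558). No receptor passed between the diets or in the interaction by edgeR, where 3 of 7 at 0 h, 1 of 7 at 24 h and 0 of 7 in the interaction had an unadjusted p under 0.05, against 778, 993 and 297 of all 12641 genes. At 0 h Ccr7 was at -1.31 ± 0.29 (0.156), and it passed with DESeq2 (0.00676), without a filter on low counts (0.0344) and without HFD 0 h replicate 2 (0.00507).

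Of 21 genes for transcription factors and NF-kB regulators of macrophages, 13 rose and 2 fell with LPS in chow, and 14 rose and 2 fell in HFD, beside the same shares of all genes (13.7% and 12.9%, 12.7% and 12%). Among those with the smallest adjusted p were Irf1 (log2 fold changes 3.81 ± 0.18 in chow and 3.82 ± 0.18 in HFD), Irf7 (3.28 ± 0.18 and 4.41 ± 0.19) and Stat2 (2.46 ± 0.15 and 2.96 ± 0.15). They are transcription factors of interferon responses. Between the diets at 0 h, 1 of the 21 passed, where 0.087% of all genes were lower: Irf7 was lower in HFD, at -1.24 ± 0.17 (edgeR adjusted p = 0.00291), as Ccl5 was. At 24 h and in the interaction 0 of 21 passed by edgeR, with 0 and 2 at an unadjusted p under 0.05, against 993 and 297 of all genes.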

How the data were processed

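RNA of peritoneal macrophages had been made into libraries with a NuGen Ovation kit, per the labels' protocols. CASAVA 1.8.2, STAR 2.5.2b and mm10 stand in the submitters' processing notes, and for the read counter, annotation and strand setting the sources used here name nothing. The authors deposited a table of unnormalized counts, with 35745 RefSeq identifiers as rows and 12 libraries as columns. All but 117 identifiers were given symbols from RefSeq or GENCODE, and these 117 (2.33% to 12% of a library) stayed in the totals. A gene's transcript with the highest mean count stood for it.

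CPM used totals scaled by TMM, and RPKM is CPM per kilobase of the GENCODE M21 transcript. The filter filterByExpr left 12641 genes, which were fitted in R 4.3.3 with edgeR 4.0.16 (robust glmQLFit, then glmQLFTest) as 4 means over the 12 libraries. P-values were adjusted by Benjamini-Hochberg over all genes fitted, with a threshold of 0.05. The SE is the absolute log2 fold change over the square root of F, and 95% intervals are built on it, so neither is independent of the p-value. A gene is said to rise or fall only where this test passed. The labels do not name separate animals, so p-values reflect only how far these libraries differ, a spread that may be technical. Replicate libraries differed by more than counting noise, and all were kept. The fits were tested on simulated data.

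Named were the 10 genes in every comparison, other CC chemokines and receptors that entered the fit, and up to 4 regulators a comparison by adjusted p. Of the genes this rule names, 2 are counted in their lists and not reported here. The genes and lists were chosen with earlier results of these data known. Alternatives were median-ratio and upper-quartile factors, no filter, 1 CPM in 3 libraries, DESeq2 1.42.0, limma-voom (limma 3.58.1), the compared groups alone, a replicate block, the lane tag, sums of identifiers, and each library left out.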

Additional observations from a re-analysis of the deposited data

How the results depend on the processing

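Of 36 gene values that passed, 786 of 792 recomputed values also passed in the same direction, 6 no longer passed and 0 reversed. Of 34 that did not pass, 18 of 730 recomputed values passed and 19 reversed. Median-ratio and upper-quartile factors, the filter of 1 CPM in 3 libraries and sums of identifiers changed no count of calls by over 1.5 times. The cause of each change below was not tested.

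Without a filter, 1 gene was higher and 22 lower between the diets at 0 h, 8 higher and 2 lower at 24 h, and 3 higher in the interaction, 1 of them a member of the 10 (Ccl5). DESeq2 gave 9 higher and 60 lower at 0 h, 22 higher and 19 lower at 24 h, and 9 higher and 1 lower in the interaction, 2 of the 10 among them. DESeq2 and limma-voom also called Ccl6 higher with LPS in HFD (adjusted p = 0.0321 and 0.0439). Limma-voom gave 1 higher at 0 h and 4 higher and 7 lower at 24 h. The compared groups alone gave 1 higher at 0 h and 0 higher at 24 h. With the lane tag fitted, LPS in chow gave 5 of the 10 chemokines, 874 genes higher and 635 lower, and diet at 24 h 0 higher.

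Label numbers are shared by the 0 h and 24 h libraries of a diet. The correlation of deviations between libraries of the same number ran from 0.0293 to 0.346, not over 0.1 in every pair, and not every library correlated best with its own number, so the numbers were not taken as pairing. The replicate block gave 18 genes lower at 0 h and 4 higher in the interaction, with 1 of the 10 (Ccl5, log2 value 1.26, adjusted p = 0.0199). Under the block, Ccl6 with LPS in HFD (0.85, 0.00403) and Ccl8 with LPS in chow (1.55, 0.00111) passed too.

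Values that changed sign had not passed under any setting. Diet at 24 h of Ccl5 was 0.0013 without a filter and 0.078 with the lane tag, and that of Ccl22 0.031 with the tag. The interaction was -0.047 for Ccl22 under the block, and 0.21 for Ccl3 and 0.077 for Ccl4 with the tag. LPS in HFD of Ccl8 was -0.16 with limma-voom.

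Leaving out 1 library at a time gave 8 to 8 of the 10 higher with LPS in chow and 8 to 10 in HFD. It gave 1 to 2 of the 10 lower between the diets at 0 h and 0 to 2 higher in the interaction. Over all genes it gave 0 to 2 higher and 7 to 23 lower at 0 h, 0 to 3 higher and 0 to 1 lower at 24 h, and 0 to 3 higher in the interaction. Ranges that crossed 0 were -0.36 to 0.64 for Ccl8 with LPS in HFD and -0.058 to 0.080 for Ccl5 between the diets at 24 h. In the interaction they were -0.29 to 0.15 for Ccl2, -0.54 to 0.0041 for Ccl3, -0.52 to 0.55 for Ccl4 and -0.12 to 0.43 for Ccl22.

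HFD 0 h replicate 3, with the lowest total, limits the low genes: 3 counts there equal 1.35 CPM, above the group mean of Ccl24.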
